A study of Mus musculus with 3 samples.

Results

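The Ikaros family is a set of 5 zinc finger transcription factors of lymphocytes, encoded in the mouse by Ikzf1 (Ikaros), Ikzf2 (Helios), Ikzf3 (Aiolos), Ikzf4 (Eos) and Ikzf5 (Pegasus). The members were taken by name, and all 5 of them are among the 32285 features of the count matrices. Their RNA was followed in follicular T cells sorted from mouse spleen 14 days after immunisation with ovalbumin carried by liposomes. The mice were of the genotype Siglec-G B-cell knockout (BKO), in which B cells lack an inhibitory receptor for sialic acid, or wild type (WT) (the sources used here state no strain, age, number of animals or Cre driver). The sort took follicular regulatory T cells (Tfr), which restrain the germinal centre, together with follicular helper T cells (Tfh), which help its B cells. The study asked how Siglec-G on B cells bears on the help that T cells give in the germinal centre. Transcripts of single cells were captured at their 3′ ends on the 10x platform, and each captured molecule was tallied once through its UMI (unique molecular identifier).

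Ikaros family proteins bind DNA through zinc fingers near the N-terminus and pair with each other through fingers at the C-terminus. They act largely through corepressor and chromatin complexes such as NuRD, Sin3 and CtBP. Ikaros is needed for lymphocyte development, and Aiolos is its close partner in mature lymphocytes. Helios is abundant in regulatory T cells and helps to keep their identity stable, and Eos works with Foxp3, the factor that defines regulatory T cells. Pegasus is the most divergent of the family.

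The deposited samples comprise 1 BKO library and WT samples numbered 1 and 2. All 5554 barcodes of the first WT sample are among the 5721 of the second, with a correlation of 0.997 between their UMI totals, so the WT samples hold the same cells and are called WT run 1 and WT run 2 here. They are 1 library, BKO and WT run 1 carry the label batch 1 and WT run 2 carries batch 2, and no difference between BKO and WT has a biological replicate. The authors' tables kept 2044 Tfr and 6389 Tfh cells of BKO, 1416 and 3727 of WT run 1, and 1449 and 3668 of WT run 2. Median depth was 7054.5, 5146 and 8407 UMIs in Tfr cells of BKO, WT run 1 and WT run 2, and 6243, 4413 and 7293.5 in Tfh cells. Every Tfr cell held a Foxp3 UMI, while 0.908% of BKO, 0.402% of WT run 1 and 9.95% of WT run 2 Tfh cells held one. In WT run 2 the UMI total of a cell in the authors' tables was a median of 0.659 times that in the matrix used here. In BKO and WT run 1 this ratio was 1. Siglecg was near 0 in these T cells of any genotype (1 UMI in all BKO cells, 4 in all cells of each WT run), so it does not check the labels. T cell markers summed to between 6564 and 8204 UMIs per 1000000 (CPM), with all 8 of them detected in every library and class. The 8 B cell markers summed to 63.8 CPM or less and the 8 myeloid markers to 4.27 CPM or less.

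Ikzf1 lies at chr11:11685003-11772926 on the plus strand, and the others on the minus strand, Ikzf2 at chr1:69531214-69687245, Ikzf3 at chr11:98464902-98546031, Ikzf4 at chr10:128630843-128645991 and Ikzf5 at chr7:131388652-131410521 (GRCm38, GENCODE vM21). The sequences of the fingers show how close the members are to each other and whether their reads could be confused. In the coding exons of the longest coding transcript, the codon pattern of a zinc finger (a pair of cysteines, then a histidine and a second histidine or a cysteine) occurred 6 times in Ikzf1, Ikzf2 and Ikzf3 and 5 times in Ikzf4 and Ikzf5. The second of these stretches, which lies among the DNA-binding fingers, is given 5′ to 3′ on the coding strand for the members nearest in sequence, with the codons of the cysteines and histidines in capitals.
Ikzf1, chr11:11754024-11754086, plus strand: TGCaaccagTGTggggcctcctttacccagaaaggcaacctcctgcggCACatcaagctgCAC
Ikzf2, chr1:69570581-69570643, minus strand: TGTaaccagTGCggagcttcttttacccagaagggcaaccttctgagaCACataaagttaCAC
Ikzf3, chr11:98488940-98489002, minus strand: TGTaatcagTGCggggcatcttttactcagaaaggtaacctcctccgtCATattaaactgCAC
Ikzf4, chr10:128640229-128640291, minus strand: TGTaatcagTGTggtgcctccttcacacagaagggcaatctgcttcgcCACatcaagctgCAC
Over these 63 bases Ikzf1 and Ikzf4 shared 53, Ikzf1 shared 51 with Ikzf2 and with Ikzf3, and the other pairs of these members shared 48. The last stretch of the same length, in the C-terminal part through which the proteins pair, is also recognisable in Ikzf5.
Ikzf1, chr11:11769411-11769473, plus strand: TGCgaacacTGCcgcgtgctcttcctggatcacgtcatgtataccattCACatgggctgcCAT
Ikzf5, chr7:131391739-131391801, minus strand: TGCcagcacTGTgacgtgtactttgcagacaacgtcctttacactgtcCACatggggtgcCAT
Here Ikzf5 shared 43 of 63 bases with Ikzf1, while the other 4 members shared between 51 and 54 with each other. No window of 91 bases was identical between annotated transcripts of any pair of members, and of windows of 31 bases 3 were identical between Ikzf2 and Ikzf4 and 0 between any other pair. On the annotation Ikzf5 overlaps Fgfr2 on its own strand and Pstk on the other, so its counts are uncertain. Predicted gene models on the opposite strand overlap Ikzf1, Ikzf2 and Ikzf4. On the same strand, the predicted models Gm29112 and Gm28112 overlap Ikzf2, so that its counts are uncertain to that extent. A small nuclear RNA overlaps Ikzf3 on its strand but is not among the features of the count matrices. Its part in the counts of Ikzf3 was not tested.

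The first comparison asks how the members differ between Tfr and Tfh cells of the same library. Ikzf4 and Ikzf2 were higher in Tfr cells, Ikzf1 was lower, Ikzf3 was slightly lower, and Ikzf5 was not called. Thus 2 of the 5 members rose, where 12.0% of 13590 genes tested did, and 2 fell, where 10.2% did (edgeR quasi-likelihood test on summed UMIs of BKO and WT run 1 with the library as block, adjusted p under 0.05 over all genes tested). The median log2 difference of the members was -0.03, against -0.0039 over all genes tested.

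Ikzf4, the gene of Eos, had 86.0 CPM in Tfr and 20.5 CPM in Tfh cells of BKO. In the WT runs it had 100 and 97.9 CPM in Tfr cells and 32.5 and 31.5 CPM in Tfh cells. The Tfr level was 4.11-fold the Tfh level in BKO, 3.06-fold in WT run 1 and 3.07-fold in WT run 2. The fitted log2 difference was 1.86 ± 0.09 (SE), with an adjusted p of 1.8e-09 in the edgeR fit, and every Tfr value lay above every Tfh value.

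Ikzf2, the gene of Helios, had 3032 CPM in Tfr and 1371 CPM in Tfh cells of BKO. It had 3173 and 3234 CPM in Tfr cells of the WT runs, against 1588 and 1599 CPM in their Tfh cells. The Tfr level was 2.21-fold the Tfh level in BKO and 2.00- and 2.02-fold in the WT runs, without overlap. The fitted log2 difference was 1.07 ± 0.07 (SE; edgeR adjusted p = 3.3e-08).

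Ikzf1, the gene of Ikaros, went the other way, with 278 CPM in Tfr and 553 CPM in Tfh cells of BKO. In the WT runs it had 447 and 443 CPM in Tfr cells and 832 and 834 CPM in Tfh cells. The Tfh level was 1.99-fold the Tfr level in BKO, 1.86-fold in WT run 1 and 1.88-fold in WT run 2. The fitted log2 difference of Tfr over Tfh was -0.94 ± 0.06 (SE; edgeR adjusted p = 4.2e-08).

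Ikzf3, the gene of Aiolos, had 270 CPM in Tfr and 317 CPM in Tfh cells of BKO. It had 239 and 232 CPM in Tfr cells of the WT runs, against 295 and 278 CPM in Tfh cells. Its log2 difference of -0.26 ± 0.06 (SE) passed the edgeR threshold (adjusted p = 0.0043) and not that of DESeq2 (adjusted p = 0.072). Ikzf5, the gene of Pegasus, had 22.5, 20.2 and 22.7 CPM in Tfr cells of BKO, WT run 1 and WT run 2, and 24.2, 19.1 and 22.3 CPM in Tfh cells. Its log2 difference was -0.03 ± 0.10 (SE; edgeR adjusted p = 0.89), and its Tfr and Tfh values overlap.

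**Figure D1:**
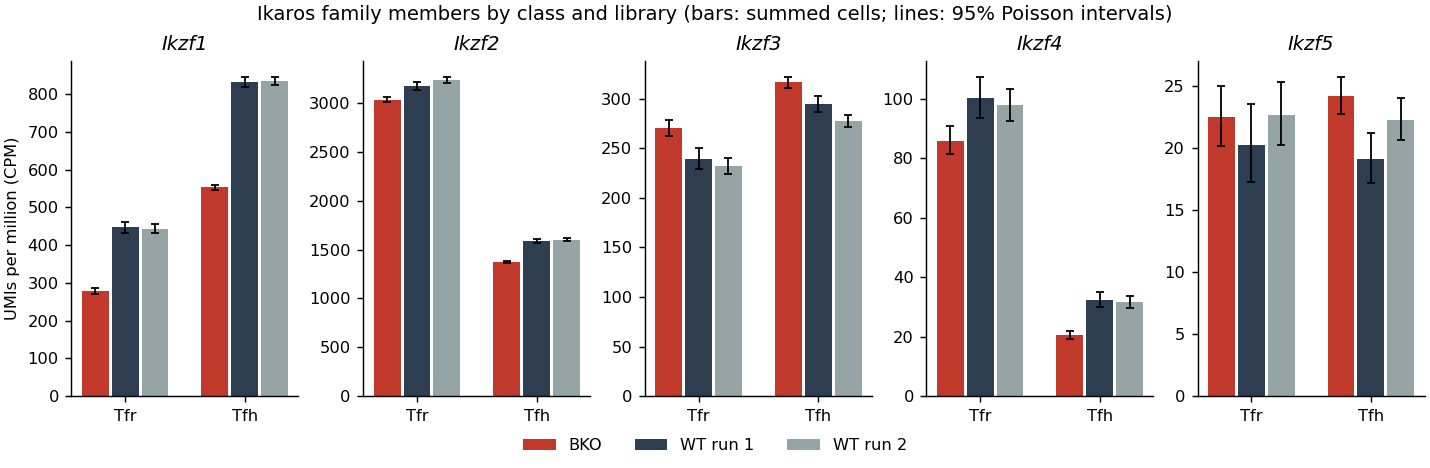
Level of each member in CPM (vertical axis of each panel) in all Tfr and all Tfh cells of BKO, WT run 1 and WT run 2, with exact 95% Poisson intervals that cover counting error only. Ikzf2 and Ikzf4 stand higher in Tfr, Ikzf1 higher in Tfh and lower in BKO of both classes, and Ikzf5 lies between 19.1 and 24.2 CPM throughout.

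These p-values rest on 1 residual degree of freedom. Those of edgeR also rest on spread borrowed from other genes, worth a median of 13.48 prior degrees of freedom. Libraries of different genotype stand as the replicates of the class difference. How the authors assigned the classes is not given beyond their match with Foxp3 UMIs. Without the library as block the adjusted p was 0.015 for Ikzf4, 0.054 for Ikzf2 and 0.16 for Ikzf1 in edgeR, and 146 genes were higher and 141 lower. Each cell was also thinned to 2500 UMIs at random, so that cells of different depth can be compared. So thinned, BKO Tfr cells averaged 7.74 Ikzf2 UMIs with no Foxp3 UMI left (806 cells), 7.29 with 1 (802 cells) and 8.22 with 2 or more (427 cells). In WT run 1 these means were 7.81, 8.31 and 8.68, and in WT run 2 they were 7.82, 8.22 and 9.03. The mean was thus higher with 2 or more Foxp3 UMIs than with none in each library, by less than 1.5 UMIs.

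Levels also differed between the authors' subclusters within a class. Of 16 subclusters, 10 hold at least 100 cells in each library (Tfr 0 to 4 and Tfh 0 to 4), and these are compared below as a description, since they were made from the same expression values. In Ikzf2 and Ikzf4, Tfh subcluster 1 stood with the Tfr cells. It had 3342 CPM of Ikzf2 in BKO and 3407 and 3471 CPM in the WT runs, within the range of the Tfr subclusters, while the other large Tfh subclusters had 836 to 1412 CPM in BKO and 701 to 1481 CPM in WT run 1. Its Ikzf4 was 80.8 CPM in BKO and 98.3 and 95.7 CPM in the WT runs, against 5.85 to 14.5 CPM in the other large Tfh subclusters of BKO and 6.57 to 13.4 CPM in those of WT run 1.

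Seen per cell, 98.0% of BKO, 98.7% of WT run 1 and 97.9% of WT run 2 cells in Tfh subcluster 1 kept an Ikzf2 UMI after thinning to 2500 UMIs. In Tfh subcluster 0 these shares were 67.2%, 60.1% and 61.1%. For Ikzf4 they were 18.4%, 21.0% and 19.7% in Tfh subcluster 1 and 1.66%, 1.79% and 1.53% in Tfh subcluster 0. With Tfh subcluster 1 left out, an alternative chosen after seeing the data, the Tfr difference became 2.99 for Ikzf4, 1.56 for Ikzf2 and -1.08 for Ikzf1 (log2, edgeR).

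Ikzf4 was highest in Tfr subcluster 4, with 157 CPM in BKO and 177 and 189 CPM in the WT runs, and there its intervals lay apart from those of the next subcluster in each library. Its highest level was 26.9-fold its lowest in BKO and in WT run 1. Ikzf2 led in Tfr 4, Tfr 1 and Tfh 1, whose neighbouring levels did not differ beyond counting error, was lower in Tfr subcluster 2 (2113 CPM in BKO, 2573 and 2523 CPM in the WT runs) and lowest in Tfh 0.

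Ikzf1 ran in the other direction and was highest in Tfh subcluster 0, with 844 CPM in BKO and 1084 and 1064 CPM in the WT runs. Tfh subcluster 3 followed with 660 CPM in BKO and 920 and 960 CPM in the WT runs. Its lowest levels were 212 CPM in Tfr subcluster 1 of BKO, and 310 and 322 CPM in Tfr subcluster 2 of the WT runs. Ikzf3 was also highest in Tfh subcluster 0 of each library, at 506 CPM in BKO and 331 and 308 CPM in the WT runs. Its lowest level was 168 CPM in Tfr subcluster 4 of BKO and 127 and 138 CPM in Tfh subcluster 4 of the WT runs. For Ikzf5, 0 of 9 neighbours in the order differed beyond counting error in any library.

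The smaller subclusters went past some of these levels. In Tfh subcluster 6, with 91 BKO cells and 181 and 177 cells in the WT runs, Ikzf1 was at 888 CPM in BKO and 1258 and 1172 CPM in the WT runs. In Tfh subcluster 5, with 11 BKO cells against 359 and 363 in the WT runs, Ikzf3 was at 395 CPM in BKO (95% interval 275 to 549) and 524 and 482 CPM in the WT runs.

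**Figure D2:**
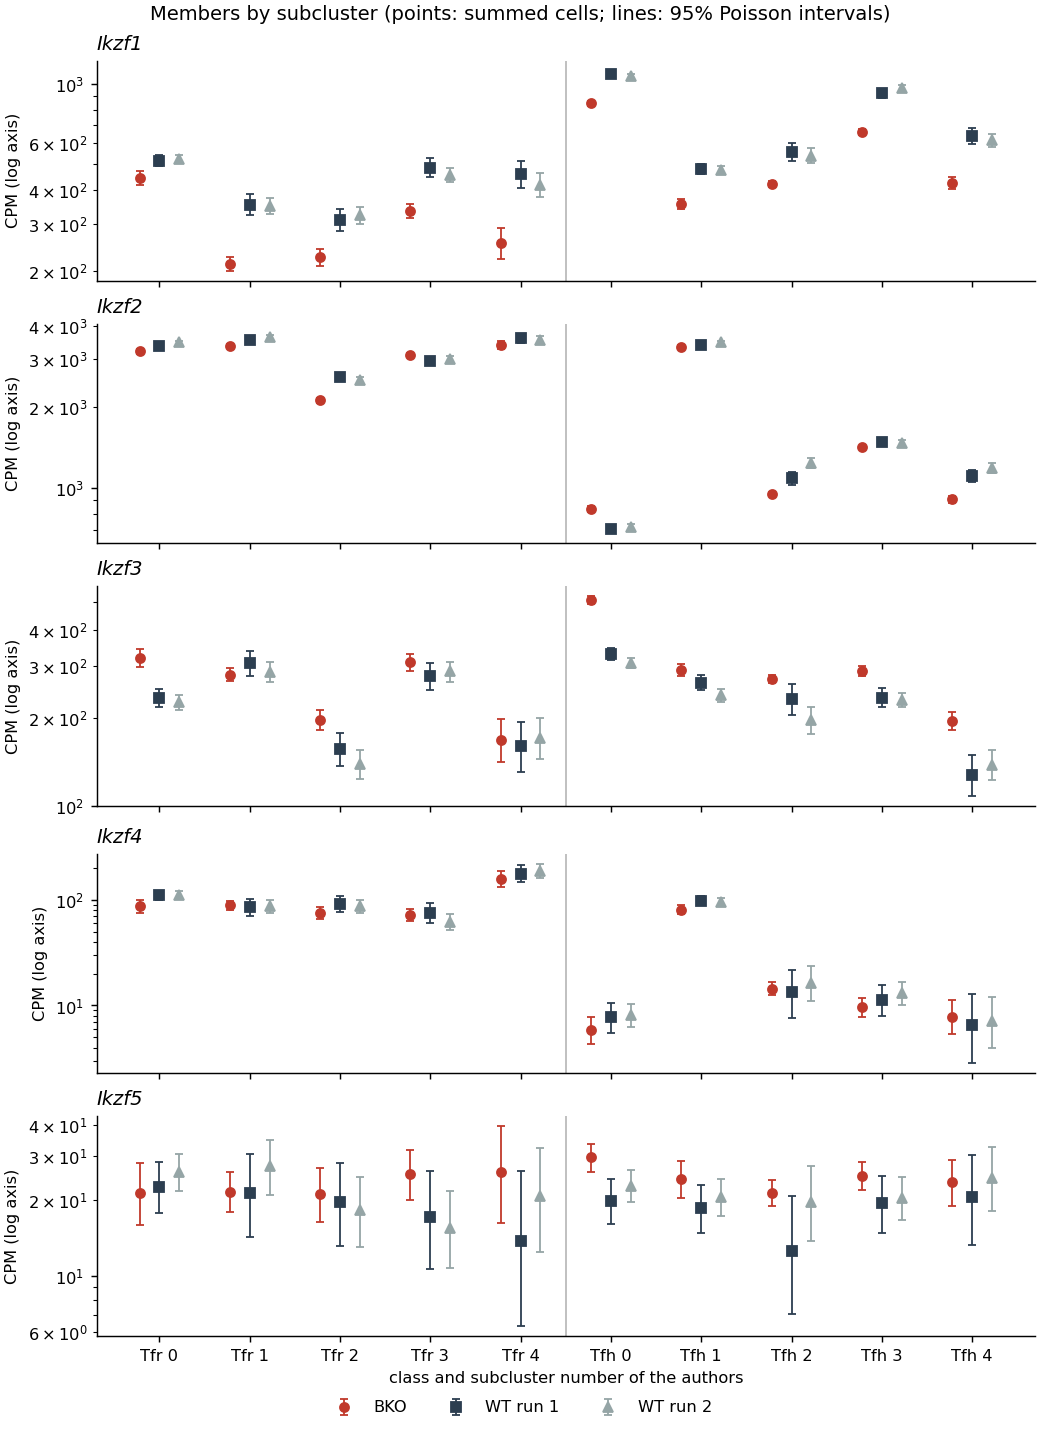
Level of each member (CPM, log axis) in the 10 subclusters of at least 100 cells per library, Tfr left of Tfh, with BKO, WT run 1 and WT run 2 side by side and exact 95% Poisson intervals. In the panels of Ikzf2 and Ikzf4, Tfh subcluster 1 lies at the height of the Tfr subclusters.

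Across these 10 subclusters the profiles of Ikzf2 and Ikzf4 ran together, with r = 0.95 in BKO and in WT run 1, and both ran against Ikzf1 (r between -0.80 and -0.67 in BKO and -0.77 and -0.76 in WT run 1). These are descriptions over 10 points that share their libraries. By the same measure over 6077 genes, the profiles most like Ikzf4 were those of Swap70, a signalling protein that binds actin, Cd74, the invariant chain of MHC class II, and Bicd1, a dynein adaptor, with the smaller r of both libraries at 0.98, 0.98 and 0.97. Pnrc1, Wls and Cep112 were closest to Ikzf2 (0.96 each). Sipa1l1, Pip4k2a and Dennd4c were closest to Ikzf1 (0.96, 0.94 and 0.94), and Stk17b, Tm2d1 and Plekhg3 to Ikzf3 (0.84 each). For Ikzf5 the closest were Dgcr2, Tmem62 and Nbeal1, at 0.75 or less.

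Within single cells most pairs of members were found together about as often as their separate shares give. After thinning, 18.9% of BKO Tfr cells held UMIs of both Ikzf2 and Ikzf4, against 18.5% for the product of the shares within subclusters. For Ikzf1 and Ikzf3 in BKO Tfh cells the shares were 31.8% observed and 31.1% from the product. For Ikzf1 and Ikzf4 in Tfh cells they were 2.17% observed and 2.65% from the product in BKO, and 4.84% and 5.09% in WT run 1. Ikzf3 and Ikzf4 were found together less often than the product gives in every library and class. In Tfh cells their shares were 1.80% observed and 2.03% from the product in BKO, and 2.60% and 2.88% in WT run 1.

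The second comparison sets BKO against WT within each class. With 1 library a side there is no test, and a gene is called by size: a mean of at least 20 CPM, and BKO at least 1.5 times beyond both WT runs. In Tfr cells 1 of the 5 members, Ikzf1, was lower by this rule, where 2.40% of 6539 genes were, and 0 were higher, where 0.887% of genes were. In Tfh cells 2 of the 5, Ikzf1 and Ikzf4, were lower, where 2.45% of 6559 genes were, and 0 were higher, where 0.396% of genes were. The median log2 ratio was -0.08 for the members and -0.09 for all genes in Tfr cells, and -0.22 and -0.10 in Tfh cells.

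Ikzf1 had 278 CPM in Tfr cells of BKO (95% interval 270 to 286) and 447 and 443 CPM in the WT runs, a log2 ratio of -0.68. It had 553 CPM in Tfh cells of BKO (546 to 560) and 832 and 834 CPM in the WT runs, a log2 ratio of -0.59. In both classes the BKO interval lay below those of both runs, and within the label batch 1 (WT run 1 alone) the ratios were -0.68 and -0.59. The WT level was 1.60-fold the BKO level in Tfr and 1.51-fold in Tfh cells, so the Tfh value stands at the edge of the rule. With TMM scaling, which raises the median gene by 0.11 in Tfr and 0.16 in Tfh, the ratios were -0.56 and -0.43 and neither met it.

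The share of cells with an Ikzf1 UMI was lower in BKO as well. After thinning, which left out 9, 36 and 2 shallower Tfr cells and 66, 194 and 56 Tfh cells of BKO, WT run 1 and WT run 2, it was 44.8% of BKO Tfr cells (95% interval 42.6 to 47.0), against 59.9% and 60.9% in the WT runs. In Tfh cells it was 64.7% in BKO (63.5 to 65.9), against 79.1% and 79.0% in the WT runs. Unthinned, the shares were 73.4% of BKO Tfr cells against 79.9% and 89.6% in the WT runs, and 85.7% of BKO Tfh cells against 89.2% and 94.6%. After thinning to 2500 UMIs, cells with 5 or more Ikzf1 UMIs made up 4.67% of BKO Tfh cells and 10.9% and 11.5% of WT Tfh cells. Barcodes of 1 to 50 UMIs in the BKO matrix, which hold free RNA, had 375 CPM of Ikzf1, a level above that of BKO Tfr cells and below that of BKO Tfh cells.

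**Figure D3:**
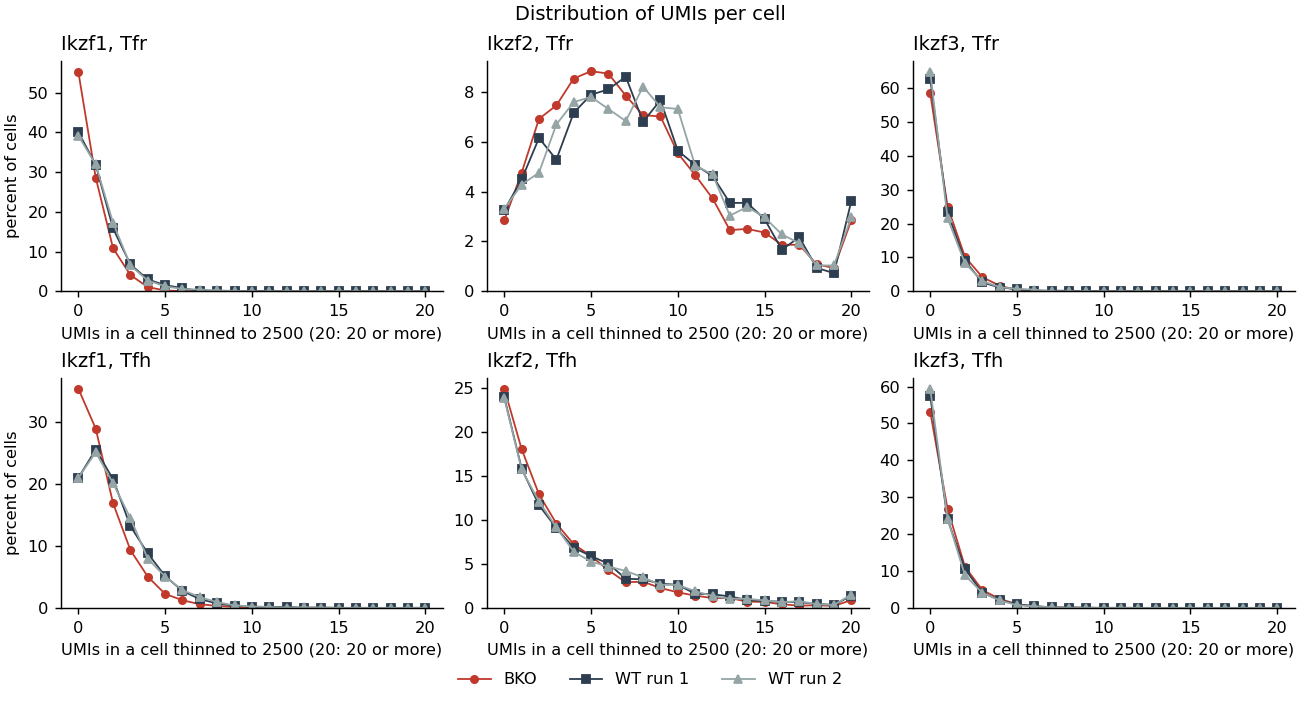
Percent of cells (vertical axis) by the number of UMIs of Ikzf1, Ikzf2 or Ikzf3 in a cell (horizontal axis) after thinning each cell to 2500 UMIs, for Tfr (upper row) and Tfh cells (lower row) of BKO, WT run 1 and WT run 2. The BKO line of Ikzf1 starts higher at 0 UMIs, at 55.2% of Tfr and 35.3% of Tfh cells, and the WT runs lie on each other.

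Ikzf1 was lower in BKO in each of the 10 large subclusters, with intervals apart in all of them. Such intervals cover counting error only, and the share of all genes with intervals apart was not counted, here or for the other members. The log2 ratio of Ikzf1 ran from -0.79 in Tfr subcluster 4 to -0.22 in Tfr subcluster 0. Over the 5 Tfh subclusters it ran from -0.56 to -0.35. It met the rule in Tfr subcluster 4, with 253 CPM in BKO and 458 and 419 CPM in the WT runs, where 7.79% of genes were lower, and in Tfr subcluster 1, with 212 CPM in BKO and 353 and 349 CPM in the WT runs, where 3.79% were. Giving each large subcluster of a class equal weight, the ratio was -0.54 in Tfr and -0.44 in Tfh cells, under the rule in both. The subclusters made up different shares of the libraries. Tfr subcluster 0 held 15.4% of BKO Tfr cells, against 39.1% and 40.0% in the WT runs, and Tfr subcluster 1 held 36.3%, against 16.2% and 17.1%. Tfr subcluster 6, with Ikzf1 at 710 and 724 CPM in the WT runs, had 0 cells in BKO and 27 and 20 in the WT runs, and without it, as chosen after seeing the data, the Tfr ratio was -0.66. Tfh subcluster 2 held 34.1% of BKO Tfh cells, against 6.90% and 7.33% in the WT runs. The 8 markers of CD8 T and NK cells summed to 61.7 CPM in BKO Tfh cells and 338 and 318 CPM in the WT runs, with Nkg7 leading. Ncr1 was at 0 in BKO and WT run 1, and Cd8a was at 0 in WT run 1. In Tfr cells the same 8 markers summed to 60.6 CPM in BKO and 119 and 91.4 CPM in the WT runs. There Ncr1 was at 0 in each library, Cd8a in both WT runs and Klrd1 in BKO. The 8 cycling markers summed to 100 CPM in BKO Tfh cells and 205 and 180 CPM in the WT runs. Tfh subcluster 5 made up 0.172% of BKO and 9.63% and 9.90% of WT Tfh cells, and subcluster 6 made up 1.42% of BKO and 4.86% and 4.83% of WT Tfh cells. Without these subclusters, as chosen after seeing the data, the Tfh ratio of Ikzf1 was -0.52 and no longer met the rule. The part of the cycling markers in it was not tested.

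The file headers name another Cell Ranger release for BKO than for WT, and ratios fell with intron length: the median log2 ratio in Tfh cells was 0.17 for genes with under 3 kb of intron and -0.36 for those over 100 kb. The sources used here do not say whether reads in introns were counted. Ikzf1 holds 82.1 kb of intron, and the 642 tested genes within 1.25 times of that length had a median of -0.30 in Tfh cells (644 genes, -0.30, in Tfr cells). With this trend taken off, Ikzf1 was at -0.37 in Tfr and -0.29 in Tfh cells, and it met the rule in neither class. The part of genotype and that of counting in the ratio of Ikzf1 cannot be told apart by this design.

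Ikzf3 has 72.4 kb of intron and lay on the other side of 0. It had 270 CPM in Tfr cells of BKO, against 239 and 232 CPM in the WT runs, and 317 CPM in Tfh cells of BKO, against 295 and 278 CPM. The log2 ratios of 0.20 in Tfr and 0.15 in Tfh cells did not meet the rule, and without the intron trend they stood at 0.49 and 0.42. It was above the mean of the WT runs in 9 of the 10 large subclusters and above both runs in 8. Its intervals lay apart from those of both runs in Tfr subclusters 0 and 2 and in Tfh subclusters 0, 2, 3 and 4, and not in the others. The 1 below was Tfr subcluster 1, with 281 CPM in BKO and 308 and 287 CPM in the WT runs. It met the rule in Tfh subcluster 0, with 506 CPM in BKO and 331 and 308 CPM in the WT runs, where 33 of 6597 genes were higher and 1.00% met the rule in either direction. The share of BKO Tfr cells with an Ikzf3 UMI after thinning was 41.5%, against 37.2% and 35.2% in the WT runs. After thinning, 46.8% of BKO Tfh cells held an Ikzf3 UMI (95% interval 45.6 to 48.1), against 42.5% and 40.6% in the WT runs. Ikzf3 stood at 268 CPM in free RNA of the BKO matrix, about the level of BKO Tfr cells, and the part of free RNA in its shares was not tested.

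**Figure D4:**
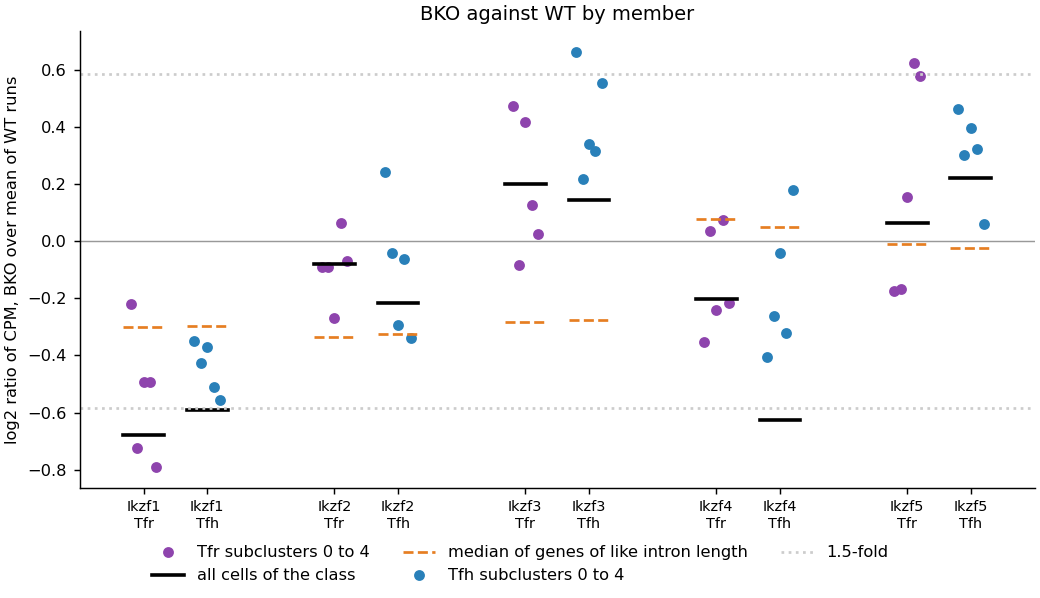
Log2 ratio of CPM, BKO over the mean of the WT runs (vertical axis), for each member in Tfr (left of each pair) and Tfh cells, as the value over all cells of the class (black line), over each large subcluster (points) and as the median of genes within 1.25 times of the member's intron length (dashed line). All 10 points of Ikzf1 lie below 0 and 9 of 10 points of Ikzf3 lie above it. The dashed lines stand at -0.30 in Tfr and in Tfh for Ikzf1, and at -0.28 and -0.27 for Ikzf3. The part of counting in either member was not tested.

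The number of Ikzf3 UMIs per 100 Ikzf1 UMIs in the same cells needs no scaling of libraries, and capture differs between genes, so it is compared only between libraries. It was 97.3 in Tfr cells of BKO (95% interval 93.2 to 101.6), against 53.5 and 52.4 in the WT runs. In Tfh cells it was 57.3 in BKO (56.1 to 58.5), against 35.4 and 33.3 in the WT runs. It was higher in BKO than in both runs, with intervals apart, in each of the 10 large subclusters, and was highest in Tfr subcluster 1, at 133 in BKO and 87.3 and 82.4 in the WT runs. This is a description of 1 library a side, with the same difference in counting.

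**Figure D5:**
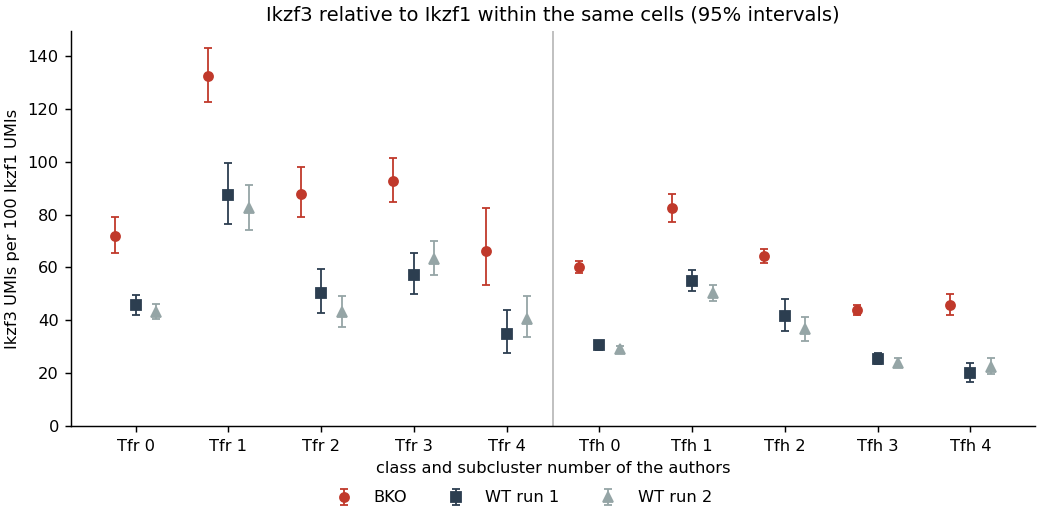
Ikzf3 UMIs per 100 Ikzf1 UMIs (vertical axis) in the 10 large subclusters, Tfr left of Tfh, for BKO, WT run 1 and WT run 2 with 95% intervals for counting error. The BKO point lies above both WT points in every subcluster.

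By the rule Ikzf4 was lower in Tfh cells of BKO, with 20.5 CPM (95% interval 19.2 to 21.9) against 32.5 and 31.5 CPM in the WT runs, a log2 ratio of -0.63. Tfh subcluster 1, where Ikzf4 is high, made up 14.4% of BKO Tfh cells and 24.9% and 23.6% of WT Tfh cells. With equal weight on the large subclusters the ratio was -0.17, and without subcluster 1 it was -0.16. Without Tfh cells that hold a Foxp3 UMI it was -0.50, and with TMM scaling -0.47, also under the rule. The level of Ikzf4 in free RNA (BKO barcodes of 1 to 50 UMIs) was 30.2 CPM, above the 20.5 CPM of BKO Tfh cells. In Tfr cells Ikzf4 had 86.0 CPM in BKO and 100 and 97.9 CPM in the WT runs, a log2 ratio of -0.20 that did not meet the rule.

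Ikzf2 did not meet the rule in either class. In Tfr cells it had 3032 CPM in BKO and 3173 and 3234 CPM in the WT runs (log2 ratio -0.08), and in Tfh cells 1371 CPM in BKO and 1588 and 1599 CPM in the WT runs (-0.22). Without the intron trend both ratios were above 0, at 0.28 in Tfr and 0.12 in Tfh cells. An Ikzf2 UMI was kept in 97.1% of BKO, 96.7% of WT run 1 and 96.7% of WT run 2 Tfr cells after thinning. In Tfh cells the shares were 75.0%, 76.0% and 76.2%. In BKO barcodes of 1 to 50 UMIs Ikzf2 had 1303 CPM, close to the level of all BKO Tfh cells and above the 836 CPM of BKO Tfh subcluster 0, and the part of free RNA in these shares was not tested. Ikzf5 had 22.5 CPM in Tfr cells of BKO and 20.2 and 22.7 CPM in the WT runs, and 24.2 CPM in Tfh cells of BKO and 19.1 and 22.3 CPM in the WT runs, with log2 ratios of 0.07 and 0.22 that did not meet the rule.

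Genes through which the family works were read from lists made from general knowledge of the family, with the 2 genes of highest CPM named from each. Of 13 NuRD subunits, 2 rose in Tfr against Tfh cells (Mta3, log2 difference 0.20, and Gatad2a, 0.18) and 1 fell (the histone chaperone Rbbp7, -0.20), by edgeR with adjusted p of 0.026, 0.039 and 0.027. Over all genes tested 12.0% rose and 10.2% fell, so these shares are near those of all genes. The remodelling ATPases Chd4 and Chd3, the subunits of highest CPM, had 266 and 248 CPM in BKO Tfr cells and 260 and 257 CPM in BKO Tfh cells, and did not pass. Among genes of the Sin3 and CtBP complexes Sap30 fell (-0.88, edgeR adjusted p = 0.036), with 2.95 CPM in Tfr and 4.10 CPM in Tfh cells of BKO, and 1.81 and 5.28 CPM in those of WT run 1. Ncor1 and Rcor1, of highest CPM there, had log2 differences of -0.02 each. Of the 7 genes of the cereblon ubiquitin ligase, through which thalidomide-like drugs remove Ikaros and Aiolos in human cells, 0 passed in either direction, with Rbx1 at -0.04 and Ube2g1 at 0.12. Between BKO and WT, 0 of 13 NuRD genes, 0 of 7 tested corepressors and 0 of 7 ligase genes met the size rule in either class. Over all genes 0.887% were higher and 2.40% lower in Tfr cells, and 0.396% and 2.45% in Tfh cells, so a count of 0 in lists of this size is near the share of all genes. The median log2 ratios of these lists lay between -0.25 and -0.07, against -0.10 and -0.09 over all genes.

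Of 22 genes of T cells linked to Ikaros family members in earlier work, 6 rose and 9 fell in Tfr cells, where 12.0% and 10.2% of all genes did. Il2ra, the alpha chain of the interleukin 2 receptor, rose (log2 difference 2.62), as did Prdm1, the repressor Blimp-1 (2.10), while the cytokine gene Ifng (-2.08) and Tcf7, the factor TCF-1 (-1.33), fell (edgeR adjusted p between 4.9e-09 and 7.5e-05). The size differed between libraries for Prdm1, which had 55.9 CPM in Tfr and 7.16 CPM in Tfh cells of BKO, and 22.9 and 12.4 CPM in those of WT run 1. Il10, among the 6 that rose, was higher in Tfr cells of BKO only. It had 25.4 CPM in Tfr and 5.88 CPM in Tfh cells of BKO. In WT run 1 it had 8.18 and 10.4 CPM, and in WT run 2 5.61 and 10.2 CPM. Lef1, with Tcf7 of highest CPM in the list, fell by 0.43 (edgeR adjusted p = 0.00016). Between BKO and WT, 1 of 15 list genes tested, Prdm1, was higher in BKO Tfr cells (0.887% of all genes), with 55.9 CPM in BKO and 22.9 and 23.1 CPM in the WT runs. Of the same genes 3 were lower there (2.40% of all genes), Il6ra (log2 ratio -0.62), Bcl2 (-0.80) and Dtx1 (-0.78), Il6ra no longer with TMM scaling and Il6ra and Bcl2 no longer with the intron trend taken off. In Tfh cells Satb1, a chromatin organiser, was lower (24.2 CPM in BKO, 48.4 and 49.9 CPM in the WT runs), as was Dtx1 (-0.75), of 14 tested, and 0 were higher, where 2.45% of all genes were lower and 0.396% higher.

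Il2ra, Prdm1 and Satb1 are also in the next list. Of 20 regulatory T cell factors 13 rose and 3 fell in Tfr against Tfh cells, where 12.0% and 10.2% of all genes did. Their median log2 difference was 0.45, against -0.0039 over all genes, and includes Foxp3, to which the class is tied. Besides Il2ra and Prdm1, Ctla4, an inhibitory receptor, rose by 1.53 (edgeR adjusted p = 1.2e-08). Maf and Runx1, of highest CPM, had log2 differences of 0.24 (adjusted p = 0.018) and -0.05 (adjusted p = 0.68). Between BKO and WT in Tfr cells, 2 of the 20 were higher and 3 lower, where 0.887% and 2.40% of all genes were. Ctla4 was higher, with 615 CPM in BKO and 357 and 355 CPM in the WT runs, as was Prdm1, and Runx1 (-0.61), Bach2 (-0.84) and Nrp1 (-0.74) were lower, and all 3 missed the rule with the intron trend taken off, Runx1 also with TMM scaling. With TMM scaling 4 were higher, with Maf (0.73) and Tnfrsf18 (0.66) added, where 104 of 6536 genes were higher with that scaling. With the intron trend taken off, Maf was at 0.62 and Id3 at -0.61. In Tfh cells 1 of 17, Satb1, was lower and 0 were higher, where 2.45% and 0.396% of all genes were. With TMM scaling the log2 ratio of Maf to the mean of the WT runs was 0.59 there. That ratio does not set BKO against each run, as the rule does, so it is not a call. With the intron trend taken off, Id2 was at -0.62 in Tfh cells. Of the other lymphoid zinc finger genes, 9 were tested between the classes. Zbtb7b (0.42), the CD4 lineage factor ThPOK, and Gfi1 (0.41) rose, and 4 fell, led by Zeb2 (-1.61) and Klf2 (-0.99), a regulator of homing (edgeR adjusted p between 2.9e-07 and 0.017). These are 2 higher and 4 lower of 9, where 12.0% and 10.2% of all genes were. Bcl11b and Zeb1, of highest CPM, had log2 differences of -0.10 and -0.01 and did not pass. None of the 7 tested in Tfr or the 8 tested in Tfh cells met the size rule between BKO and WT, where 0.887% of all genes were higher and 2.40% lower in Tfr, and 0.396% and 2.45% in Tfh cells.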

How the data were processed

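For every sample the authors deposited a matrix of raw UMI counts, and for each class a table of cells with subclusters and UMI counts. mm10 and Cell Ranger appear in the submitters' processing notes. WT matrices hold called cells counted by cellranger-7.0.1, and the BKO matrix holds all 1275404 barcodes counted by Cell Ranger 4, per the file headers. Per the deposited tables cells have under 10% mitochondrial UMIs and under 4000 genes, and subclusters are at resolution 0.3. Nothing in the sources used here describes doublets, and no doublet caller was run. Of 5068 cells annotated in both WT runs, 10.4% were put in different classes. BKO cells shared 11 barcodes with WT run 1 and 13 with WT run 2.

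UMIs were summed by library, class and subcluster and scaled to counts per 1000000 (CPM). Log2 ratios of BKO to the mean of the WT runs add 0.5 CPM. Intervals are exact Poisson or Clopper-Pearson at 95%, and cover counting error only. Tfr and Tfh were compared with edgeR 4.0.16 in R 4.3.3 (quasi-likelihood, TMM, Benjamini-Hochberg over 13590 genes), and DESeq2 1.42.0 was an alternative. Standard errors are the log2 difference over the root of F. Scripts were tested on simulated data. Loci and sequences come from GENCODE vM21. The members and lists were chosen with earlier results of these data known. The named list genes are those past the size rule, up to 4 of largest fitted change and 2 of highest CPM per list. Il10 is named besides, for its difference between libraries. The genes most alike are 3 per member by the smaller Pearson r of log2(CPM + 1) in BKO and WT run 1. They leave out unnamed models, TCR, immunoglobulin, ribosomal and mitochondrial genes. Some items of the marker and gene lists are not reported here.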

Additional observations from a re-analysis of the deposited data

How the results depend on the processing

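For BKO against WT, TMM scaling gave log2 ratios of -0.43 for Ikzf1 in Tfh, -0.56 for Ikzf1 in Tfr, -0.47 for Ikzf4 in Tfh and 0.036 for Ikzf2 in Tfr. Taking off the intron trend gave -0.29 and -0.37 for Ikzf1 in Tfh and Tfr and 0.12 and 0.28 for Ikzf2. Equal weight on subclusters gave -0.44 and -0.54 for Ikzf1 in Tfh and Tfr and -0.17 for Ikzf4 in Tfh. Leaving out Tfh cells with a Foxp3 UMI gave -0.50 for Ikzf4. Of the alternatives chosen after seeing the data, leaving out Tfh subcluster 1 gave 0.028 for Ikzf2 and -0.16 for Ikzf4, and leaving out subclusters 5 and 6 gave -0.52 for Ikzf1. In Tfr, Ikzf5 ran from -0.013 to 0.15 with either WT run alone. Between Tfr and Tfh it was -0.11 in BKO alone and 0.079 in WT run 1 alone, against -0.03 in both. Causes were not tested.

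Genes higher in BKO numbered 63 in Tfh and 104 in Tfr with TMM, 2207 and 2172 with no minimum of CPM, and 33 to 56 and 76 to 95 with either WT run alone. Genes lower in BKO numbered 83 in Tfh and 74 in Tfr with TMM, 2950 and 2414 with no minimum, and 84 and 47 with the intron trend off. For Tfr against Tfh, DESeq2 called 646 genes higher and 465 lower, with Ikzf3 at -0.26 not called. With no replicate block for the library, 146 genes were higher and 141 lower, and Ikzf1 (-0.94), Ikzf2 (1.07) and Ikzf3 (-0.26) were not called. No paired analysis was possible for BKO against WT because the WT samples are 1 library and share only 1 replicate number with BKO. The difference of BKO from WT in the share of Tfh cells with an Ikzf2 UMI was -1.05 percentage points at 2500 UMIs, 1.39 at 4000 and 2.51 unthinned. That of Tfr cells with an Ikzf3 UMI was 6.77 at 4000 UMIs, with intervals apart there and not at 2500. Levels of Ikzf5 and of Ikzf4 in Tfh rest on few UMIs.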

Other observations

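Cells with 4000 or more genes in the matrices and absent from the authors' tables numbered 821 in BKO, 295 in WT run 1 and 375 in WT run 2. In them Ikzf1 had 508 CPM in BKO and 732 and 697 CPM in the WT runs, and Ikzf2 had 1791 CPM in BKO and 2132 and 2158 CPM in the WT runs. Ikzf3 had 220 CPM in BKO and 247 CPM in each WT run, so in these cells it was below WT. Ikzf4 had 35.7 CPM in BKO and 51.1 and 54.5 CPM in the WT runs, and Ikzf5 had 20.7 CPM in BKO and 14.9 and 18.9 CPM in the WT runs. Most WT cells with a UMI of a member in run 1 had one in run 2: 99.1% for Ikzf1, 99.3% for Ikzf2, 97.8% for Ikzf3, 94.6% for Ikzf4 and 82.5% for Ikzf5, over 5068 cells annotated in both. After thinning to 2500 UMIs, a cell held UMIs of a median of 2 of the 5 members in each library and class, and 0.885% of Tfr and 4.38% of Tfh cells of BKO held none, against 0.435% and 1.87% in WT run 1.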
